A study of Mus musculus with 50 samples.

Results

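Expression of 10 osteoclast genes was measured in the wound bed of amputated mouse digits and in cultured macrophages. The genes were Acp5, Ctsk, Calcr, Ocstamp, Dcstamp, Atp6v0d2, Oscar, Nfatc1, Tnfrsf11a and Itgb3, and they were chosen by name from the 21954 genes of the tables. The digits were hindlimb digits of young adult male C57Bl/6 mice whose distal terminal phalanx had been cut, with no transgene or drug. Non-regenerative (NR) digits had a labelled amputation level of 60 to 80%, and 29 of them cover 0, 3, 6, 12 and 24 hours, 3 days, 7 days (5 digits), 14 days and 21 days after the cut, with 3 digits per time point elsewhere. The paper's limit for non-regenerative digits is above 67%. Of these NR digits, 17 were labelled above a level of 67%, 1 at 67% and 11 below it. The levels were unevenly spread over time, with 62, 62 and 75% at 0 hours, 64, 64 and 67% at 12 hours and 71, 79 and 79% at 21 days. Time and level are therefore partly mixed in comparisons of NR digits. Intermediate (Int) digits had a labelled level of 41 to 55%, and 12 of them cover 0 hours, 24 hours, 14 days and 21 days with 3 digits each. The macrophages were grown from bone marrow of female C57BL/6 mice in medium conditioned by L929 cells, a fibroblast line that secretes the growth factor CSF1. They were left in basal medium (M0), treated with IFN-γ and LPS (M1) or treated with IL-4 (M2) for 24 hours, with 3 libraries each. The labels give 24 hours for M1 and M2 only and name M0 baseline. If M0 was collected earlier, time and treatment cannot be told apart in comparisons with M0. No source states that these 9 libraries came from separate animals, so p-values among them measure the spread between libraries, which may be technical. No culture received RANKL, and the labels describe each digit sample as a mixture of the cells around the wound bed.

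Osteoclasts are large cells with several nuclei that dissolve bone, and they form when precursors of the monocyte and macrophage lineage fuse. The cytokine RANKL binds its receptor RANK, encoded by Tnfrsf11a, on the precursor and, together with CSF1 and costimulation through receptors such as OSCAR, induces the transcription factor NFATc1. NFATc1 then drives the fusion proteins DC-STAMP and OC-STAMP, the proton pump subunit encoded by Atp6v0d2, the calcitonin receptor encoded by Calcr, the integrin β3 chain that attaches the cell to bone, and the enzymes cathepsin K and tartrate-resistant acid phosphatase, encoded by Ctsk and Acp5. After digit tip amputation, osteoclasts erode the remaining bone of the phalanx before new bone forms. Several of these genes are also active outside osteoclasts: Itgb3 in platelets and vessel cells, Ctsk in fibroblasts and cells of the periosteum, and Atp6v0d2, Dcstamp and Acp5 in macrophages.

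In GRCm38 coordinates of the GENCODE M21 annotation, Ctsk lies on the plus strand of chromosome 3 from 95499256 to 95509362 and Acp5 on the minus strand of chromosome 9 from 22126727 to 22135711. Atp6v0d2 lies on chromosome 4 from 19876841 to 19922605, Tnfrsf11a on chromosome 1 from 105780718 to 105847981 and Itgb3 on chromosome 11 from 104608000 to 104670476. Dcstamp lies on chromosome 15 from 39745930 to 39760938, Ocstamp on chromosome 2 from 165393760 to 165400405, Oscar on chromosome 7 from 3609813 to 3616157 and Calcr on chromosome 6 from 3685680 to 3764714. Exons of Acp5 overlap those of a gene on the opposite strand, 6530413G14Rik, and whether the counting used strand is not given in the sources used here.

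The promoter windows of the secreted enzymes Ctsk and Acp5 are shown because these were the highest members in the digits. Each window holds 300 bases of RefSeq sequence for GRCm38.p6, from 250 bases before to 50 after a start site, and is written in the direction of transcription. The Ctsk window is chr3:95498960-95499259 on the plus strand, and the Acp5 window is the most upstream of 3 windows, chr9:22135697-22135996 on the minus strand. Capitals mark the core GAGGAA, bound by PU.1, and the core GGAAA, bound by NFAT factors, on either strand, and the letters of both can overlap in GAGGAAA.
Ctsk: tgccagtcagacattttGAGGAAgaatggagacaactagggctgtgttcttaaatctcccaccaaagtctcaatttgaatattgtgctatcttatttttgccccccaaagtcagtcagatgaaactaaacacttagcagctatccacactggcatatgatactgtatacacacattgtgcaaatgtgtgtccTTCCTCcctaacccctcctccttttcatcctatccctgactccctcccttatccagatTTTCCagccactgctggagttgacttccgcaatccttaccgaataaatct
Acp5: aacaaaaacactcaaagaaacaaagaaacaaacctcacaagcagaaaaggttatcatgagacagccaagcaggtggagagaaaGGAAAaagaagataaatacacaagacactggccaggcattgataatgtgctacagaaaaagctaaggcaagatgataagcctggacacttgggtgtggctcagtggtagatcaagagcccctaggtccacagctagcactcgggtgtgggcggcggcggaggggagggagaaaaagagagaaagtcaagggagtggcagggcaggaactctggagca
The Ctsk window holds 2 matches to GAGGAA and 1 to GGAAA, and the Acp5 window holds 1 match to GGAAA. Of all 32851 windows of this length, 28.3% hold GAGGAA and 61.3% hold GGAAA, so such matches are common. Neither of the windows shown holds the AP-1 site TGACTCA or the E-box letters CACGTG and CACATG, which stand in 5.2%, 7.15% and 14.2% of all windows. Of the Acp5 windows not shown, chr9:22131816-22132115 holds 1 match to GGAAA. The window chr9:22130549-22130848 holds 2 matches to GGAAA and 1 to CACATG. RefSeq windows were matched for 5 of the 10 genes, and Ocstamp, Dcstamp, Atp6v0d2, Itgb3 and Nfatc1 had none in the table used.

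Expected counts assigned to genes totalled 1468749 to 13011782 per digit, with a median of 6835347, and 15683424 to 27904773 per macrophage library. Levels below are normalized TPM, a length-corrected transcript share that the authors scaled between libraries, and the digit and macrophage tables were scaled separately. A pair of digits stood apart from their groups: NR 14 days replicate 2, whose scaled values sum to 3362791, and NR 7 days replicate 2. The labels do not state which digits came from 1 animal. The dates in the labels form an earlier period with 24 digits and a later one with 17, and Int 21 days lies wholly in the earlier and NR 21 days wholly in the later. Cultured macrophages summed to 9980 to 11170 normalized TPM over 8 macrophage markers, against 41.3 to 362 in all but 1 digit. That digit, NR 14 days replicate 2, held 1972, or 586.3 when TPM was rescaled to the same sum in every library, against at most 411.3 in any other digit on that scale.

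The 10 genes spanned a wide range of levels in the digits. Over all 41 digits the median level was 65.1 normalized TPM for Ctsk, 23.2 for Acp5, 14.1 for Nfatc1, 9.68 for Tnfrsf11a and 8.74 for Itgb3. It was 0.986 for Atp6v0d2, and 0.202 and 0.151 for the fusion genes Ocstamp and Dcstamp. Calcr and Oscar had a median of 0. The ranges of neighbours in this order overlapped throughout. In a bulk sample, fewer osteoclasts and less RNA per osteoclast cannot be told apart.

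A gene was called where edgeR's quasi-likelihood test gave a Benjamini-Hochberg adjusted p under 0.05 over all genes tested and the mean normalized count changed more than 2-fold. A filter on low counts kept 5 to 7 of the 10 genes in comparisons of 2 digit groups, and Calcr, Dcstamp and Oscar never passed it there. Atp6v0d2 and Ocstamp passed it there only where digits at 7 days or later were compared. Their counts tended to be higher in such digits, so the filter favours rises among the genes tested. Across all NR time points together, 3 of the 7 genes tested changed, namely Ctsk (adjusted p = 2.371e-06), Atp6v0d2 (0.00819) and Acp5 (0.0120), where 7.62% of all genes did. Across the 4 intermediate time points, 5 of 8 changed, namely Ctsk (5.009e-04), Atp6v0d2 (0.00887), Acp5 (0.0123), Nfatc1 (0.0206) and Itgb3 (0.0475), where 6.21% of all genes did. Itgb3 kept this call in 1 of 12 fits without 1 intermediate digit. The Acp5 call over NR time was lost without NR 14 days replicate 2, with an adjusted p of 0.133. It was kept in the other 28 of 29 fits without 1 NR digit. All 5 other settings kept it as well, among them the fit without both digits that stood apart.

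Ctsk, the collagen-degrading protease of the resorption pit, was low through 24 hours and higher from 7 days on. In NR digits it stood at 39.4, 18.9 and 18.3 normalized TPM at 0 hours, at 20.4, 13.8 and 47.4 at 3 hours, at 54.9, 12.5 and 27.1 at 6 hours, at 40.6, 34.4 and 32.3 at 12 hours and at 18.7, 34.4 and 73.3 at 24 hours. It was 78.5, 63.5 and 101.7 at 3 days, 184.1, 194.7, 295.5, 310.9 and 243.5 at 7 days, 424.9, 314.7 and 529.5 at 14 days and 165.6, 140.8 and 333 at 21 days. Every NR digit from 7 days on lay above every NR digit taken earlier, except that with TPM rescaled to the same sum in every library NR 14 days replicate 2 had 93.6, below the 109.7 of NR 3 days replicate 3, and the 14 day mean was the highest, at 423 ± 107 (SD, n = 3). Among intermediate digits it was 21.2, 33.1 and 65.1 at 0 hours, 17.3, 31.8 and 39.7 at 24 hours. After 14 days these digits held 263.3, 325.2 and 385.1, and after 21 days 261.2, 146.3 and 238.1, so the early and late digits did not overlap.

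**Figure D1:**
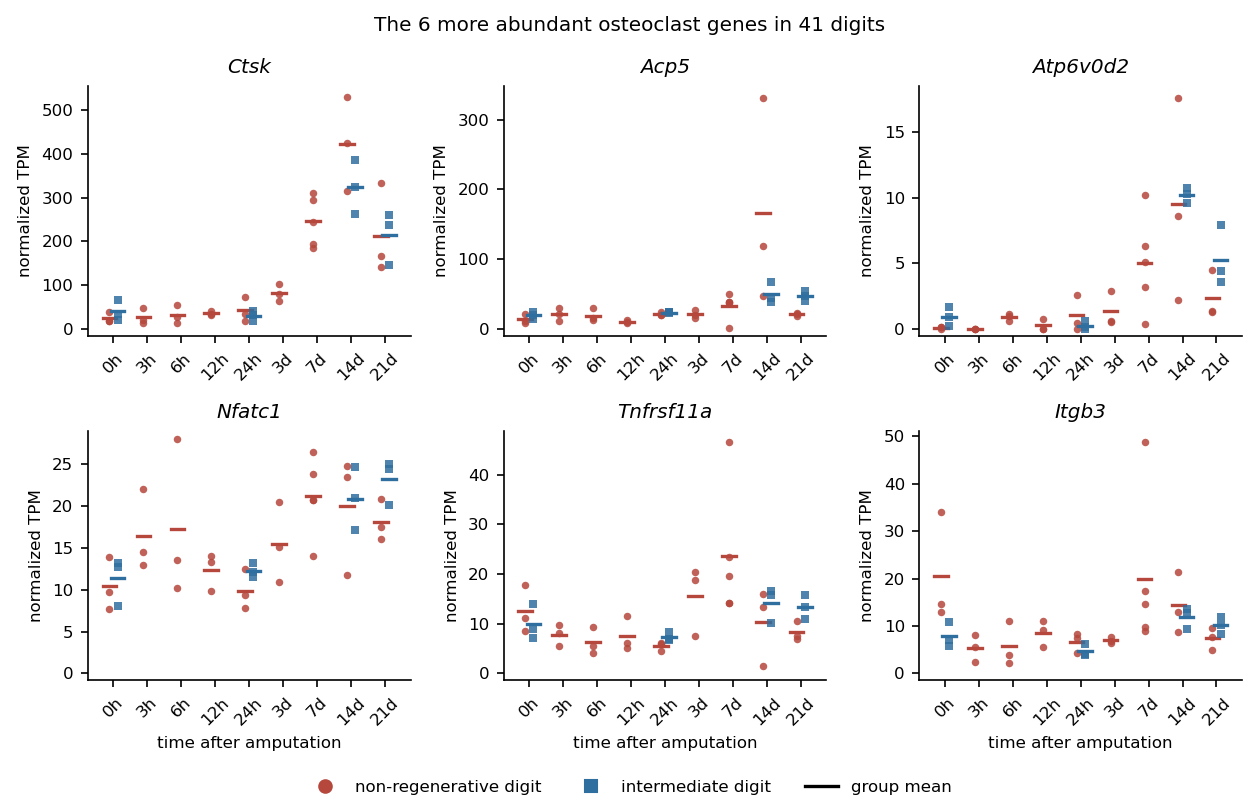
Normalized TPM of 6 osteoclast genes in each digit by time after amputation, for NR and intermediate digits, with 1 point per digit and the group mean as a bar. Ctsk lies at 12.5 to 101.7 through 3 days and at 140.8 to 529.5 from 7 days on.

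Against 24 hours, Ctsk rose 10.5-fold in intermediate digits at 14 days (log2 fold change 3.39 ± 0.32 SE, adjusted p = 0.00267) and by 2.78 ± 0.33 on the log2 scale at 21 days (0.00555). Both calls against 24 hours held in every refit. Against 0 hours it rose by 3.02 ± 0.38 at 14 days (0.00857) and 2.44 ± 0.38 at 21 days (0.0140), the latter lost in 3 of 6 fits without 1 digit. In NR digits it rose 10.1-fold from 0 hours to 7 days (3.34 ± 0.38, 0.0177) and by 3.07 ± 0.43 to 21 days (0.0331), and from 24 hours to 21 days by 2.29 ± 0.53 (0.0234), and the calls at 21 days were lost in 4 of 6 and 3 of 6 fits without 1 digit. The call at 7 days was lost in 7 of the 8 fits that left out 1 digit, with log2 fold changes of 3.16 to 3.74, and was kept without NR 7 days replicate 2. The NR digits at 14 days had the highest levels but no call, with an adjusted p of 0.167 against 0 hours and 0.192 against 24 hours. Without NR 14 days replicate 2, Ctsk rose by 4.19 on the log2 scale against 0 hours (0.00608) and by 3.41 against 24 hours (0.0156).

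The rise of Ctsk was seen within each date period. In NR digits the earlier period had means of 46 at 24 hours (n = 2) and 424.9 at 14 days (n = 1), and the later one had 34.4 (n = 1) and 422.1 (n = 2). In intermediate digits these were 17.3 (n = 1) and 355.1 (n = 2) in the earlier period and 35.7 (n = 2) and 263.3 (n = 1) in the later. Other lineages moved at the same times. The summed level of 8 osteoblast-lineage markers was 60.5 to 201 normalized TPM in NR digits at 24 hours and 3610 to 10650 at 14 days, and 207 to 383 and 4751 to 6434 in intermediate digits, where 6 of the 8 were called higher at 14 days than at 24 hours. The summed level of fibroblast markers went from 301 to 710 at 24 hours to 4727 to 10690 at 14 days in NR digits, and from 572 to 888 to 3852 to 8536 in intermediate digits. In intermediate digits Col1a2 (4.075 on the log2 scale) and Lum (3.641) were called higher at 14 days than at 24 hours, and Pdgfra and Dcn were not called. Mean normalized counts at 14 days there were 113200 for Col1a2 and 5204 for Lum. The part of these lineages in the Ctsk values was not tested.

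Acp5, the acid phosphatase used to stain osteoclasts, was highest at 14 days in NR digits. There the levels were 21.9, 11.1 and 7.98 at 0 hours, 20.1, 19.6 and 23.6 at 24 hours, 49.3, 0.502, 38.6, 38.3 and 36.8 at 7 days, 47.2, 331.9 and 118.3 at 14 days and 21.1, 23.2 and 17.8 at 21 days. Between these, from 3 hours to 12 hours and at 3 days, they ran from 8.35 to 29.8. The NR digits at 14 days lay above all NR digits at 0 hours, 24 hours and 21 days, and NR 7 days replicate 2 was the lowest of all digits, with 2 expected counts. In intermediate digits the levels were 13.8, 24.4 and 19.9 at 0 hours, 23.7, 22.1 and 24.1 at 24 hours. After 14 days they were 67.8, 37.9 and 44, and after 21 days 53.6, 39.3 and 47.6, so that early and late digits did not overlap. The rise from 0 hours to 21 days was called (1.26 ± 0.23 on the log2 scale, adjusted p = 0.0303) and was lost in 5 of 6 fits without 1 digit. The change from 24 hours to 21 days had an adjusted p of 0.0290 but was under 2-fold. The value of 331.9 in NR 14 days replicate 2 rests on the scaling of that library, since after TPM was rescaled to the same sum in every library it was 98.7. All 3 digits at 21 days lie in 1 period in each group, so the period gives no separate value there.

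Atp6v0d2, the osteoclast form of a subunit of the vacuolar proton pump that acidifies the resorption pit, went from near 0 to several normalized TPM. NR digits had 0, 0.130 and 0.151 at 0 hours, 0 in all 3 at 3 hours and 0, 0.432 and 2.62 at 24 hours, with at most 2.90 in any digit to 3 days. They then had 5.11, 0.402, 6.32, 10.2 and 3.18 at 7 days, 8.62, 2.22 and 17.7 at 14 days and 1.26, 4.48 and 1.37 at 21 days. Intermediate digits had 0.211, 0.880 and 1.68 at 0 hours, 0, 0.118 and 0.6 at 24 hours, then 9.63, 10.3 and 10.7 after 14 days and 7.89, 4.42 and 3.54 after 21 days. The late intermediate digits all lay above the early ones, while the late NR digits overlapped with those at 24 hours.

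From 24 hours to 14 days Atp6v0d2 rose 32.6-fold in intermediate digits (5.02 ± 0.72 on the log2 scale, adjusted p = 0.0164), and to 21 days by 3.96 ± 0.92 (0.0373), a call lost in 4 of 6 fits without 1 digit and in both fits of all digits. The 24 hour group held 0, 1.02 and 9.90 expected counts, so the size of these ratios rests on few counts. Without single digits the log2 change ran from 4.55 to 7.08 at 14 days. The call at 14 days was lost in 3 of 6 such fits and kept without intermediate 14 days replicate 1. It was also lost in both fits of all digits. From 0 hours to 14 days the rise was 3.57 ± 0.59 (0.0231), kept in 3 of 6 fits without 1 digit. That call was lost in both fits of all digits and in the fit of 39 digits. In NR digits no comparison of 2 times called Atp6v0d2. Without the pair of NR digits that stood apart, it was called against 0 hours at 7 days (5.76 on the log2 scale, 0.0245) and at 14 days (6.77, 0.00663). Within the earlier period the intermediate means were 0 at 24 hours and 10.5 at 14 days, and within the later 0.359 and 9.63.

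The remaining fusion and differentiation genes were near the limit of detection in digits, where a count of 0 allows up to 3 counts, and the shares of digits given here are not adjusted for depth. Ocstamp, needed for the fusion of precursors, was above 3 expected counts in 7 of 18 NR digits from 0 hours to 3 days, 2 of 5 at 7 days and 5 of 6 at 14 and 21 days. In intermediate digits it was above 3 counts in 3 of 6 early and 6 of 6 late digits. At 14 days Ocstamp had 1.05, 21.6 and 56.2 counts in NR and 28, 7.70 and 13.8 in intermediate digits, and the adjusted p over time was 0.234 in NR and 0.0901 in intermediate digits.

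Dcstamp, the fusion receptor-like protein, passed 3 counts in 5 of 18, 2 of 5 and 1 of 6 NR digits over the same stages, and in 1 of 6 early and 3 of 6 late intermediate digits. At 14 days it had 1, 0 and 70 counts in NR and 32, 2 and 0 in intermediate digits. Oscar, a costimulatory receptor of the precursors, passed 3 counts in 0 of 18, 1 of 5 and 3 of 6 NR digits and in 0 of 6 and 2 of 6 intermediate digits. Oscar had 0, 0 and 31 counts at 14 days in NR and 8, 3.75 and 0 in intermediate digits. Calcr, a marker of mature osteoclasts, was above 0 in 2 of 41 digits, with 1 count in NR 7 days replicate 1 and 2 counts in intermediate 14 days replicate 1.

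The digits with the most Dcstamp and Oscar counts were NR 14 days replicate 3 and, at 14 days in intermediate digits, replicate 1, which were also the deepest libraries of their groups. In normalized TPM they held 5.43 and 2.99 of Dcstamp, the 2 highest values of all 41 digits, and 2.67 and 0.833 of Oscar. In normalized TPM of Atp6v0d2, NR replicate 3 was highest of all digits at 17.7, whereas intermediate replicate 1 was lowest of its group at 9.63. Both digits also had the highest summed neutrophil markers at 14 days, 2463 and 2170 normalized TPM, and the part of these cells in the values was not tested.

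**Figure D2:**
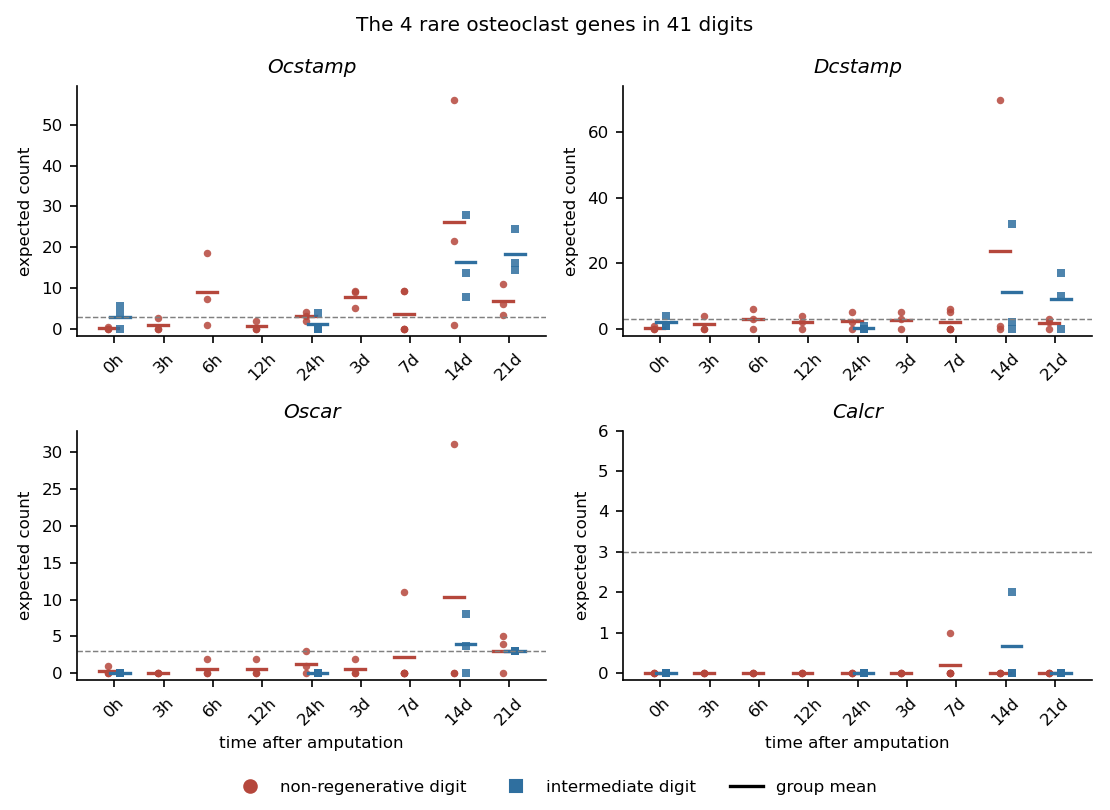
Expected counts of Ocstamp, Dcstamp, Oscar and Calcr in each digit by time after amputation, with 1 point per digit and a dashed line at 3 counts. Most early digits lie at or under the line, and the highest points, such as 70 counts of Dcstamp, are at 14 days.

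Over the NR time course edgeR did not call Itgb3 (adjusted p = 0.0595), Tnfrsf11a (0.0746) or Nfatc1 (0.357), the genes for an integrin chain, a receptor and a transcription factor. DESeq2 called all 3 (adjusted p = 0.001132, 9.575e-04 and 0.04868), where it called 4436 of all genes and edgeR 1100. Tnfrsf11a, which encodes RANK, had 17.8, 8.62 and 11.2 normalized TPM at 0 hours in NR digits, 6.15, 4.51 and 5.97 at 24 hours, 14.2, 46.6, 14.2, 19.6 and 23.4 at 7 days, 16, 1.45 and 13.3 at 14 days and 7.48, 6.90 and 10.5 at 21 days. Every NR digit at 24 hours lay below every one at 0 hours, and every one at 7 days lay above those at 24 hours. Between 0 and 24 hours Tnfrsf11a fell, with a log2 fold change of -1.14 ± 0.31 (adjusted p = 0.0388), a call kept in 1 of 6 fits without 1 digit. Intermediate digits had 7.17, 8.85 and 13.9 at 0 hours, 8.33, 6.70 and 6.90 at 24 hours, then 10.2, 16.5 and 15.8 after 14 days and 13.3, 15.8 and 10.9 after 21 days, with an adjusted p over time of 0.18. Without the pair of NR digits that stood apart, Tnfrsf11a was higher at 7 days than at 24 hours by 1.71 on the log2 scale (0.0158) and changed over NR time (0.00743).

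Itgb3, which encodes the β3 chain of the αvβ3 integrin, stood at 34, 14.6 and 12.9 at 0 hours in NR digits and at 4.26, 7.54 and 8.22 at 24 hours, and these groups did not overlap. The log2 fold change was -1.55 ± 0.39 (adjusted p = 0.0315), a call lost in 4 of 6 fits without 1 digit, among them the fit without NR 0 hours replicate 1. Markers of platelets, which carry this integrin chain, summed to 705.4, 155.5 and 115.9 in the same 3 digits at 0 hours and to 45.9 to 70.3 at 24 hours. Their part in the Itgb3 values was not tested. Later NR values of Itgb3 were 8.96, 48.9, 17.5, 9.70 and 14.6 at 7 days, 13, 8.74 and 21.5 at 14 days and 7.74, 4.99 and 9.48 at 21 days. NR 7 days replicate 2, with the highest Itgb3 and Tnfrsf11a, had a platelet sum of 19.6. In intermediate digits Itgb3 was 3.77, 4.19 and 6.16 at 24 hours and 11.8, 8.31 and 10.3 at 21 days, a rise of 1.03 ± 0.25 (0.0409) that was lost in all 6 fits without 1 digit. Within the earlier period Itgb3 in NR digits had 34 at 0 hours (n = 1) and a mean of 6.24 at 24 hours, and within the later 13.7 and 7.54 (n = 1). Tnfrsf11a had 17.8 and 6.06 in the earlier and 9.90 and 4.51 in the later.

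Nfatc1, the transcription factor that directs osteoclast formation, spanned 7.68 to 28 normalized TPM over all 41 digits. NR digits had 14, 7.68 and 9.78 at 0 hours, 9.36, 7.79 and 12.5 at 24 hours, 20.8, 26.5, 23.9, 14 and 20.8 at 7 days, 24.8, 11.7 and 23.5 at 14 days and, at 21 days, 20.8, 16.1 and 17.5. The adjusted p over NR time was 0.357. Intermediate digits had 13.3, 12.8 and 8.08 at 0 hours, 13.2, 11.5 and 12.2 at 24 hours, then 17.1, 20.9 and 24.7 after 14 days and 25, 20.2 and 24.5 after 21 days, and the late digits lay above the early ones. The rise from 0 hours to 21 days, 1.0 ± 0.20 on the log2 scale (0.0399), was lost in all 6 fits without 1 digit.

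The share of all genes called differed widely between comparisons. From 0 hours in NR digits, 2 of 5 osteoclast genes were called lower at 24 hours, where 10.7% of all genes tested were called. At 7 days 1 of 6 was called higher, against 0.0537% of all genes, and at 21 days 1 of 6, against 0.452%. At 3, 6 and 12 hours and at 3 days edgeR called 0 of 5, against 0%, 4.85%, 11.4% and 0.723% of all genes. Those 4 comparisons held 2, 2, 1 and 2 osteoclast genes at an unadjusted p under 0.05, and DESeq2 called 1, 2, 1 and 2. Of all genes 1362 of 12562, 3368 of 13168, 4589 of 13075 and 1477 of 13286 were at an unadjusted p under 0.05, and DESeq2 called 202, 1116, 1999 and 439. At 14 days edgeR called 0 of 6 and 0% of all genes, with 3 osteoclast genes and 1044 of 13567 genes in all at an unadjusted p under 0.05, and DESeq2 called 4 osteoclast genes and 357 in all. In intermediate digits edgeR called 0 of 5 from 0 to 24 hours (0.0152% of all genes), 2 of 6 to 14 days (1.68%) and 3 of 7 to 21 days (1.39%). From 0 to 24 hours, 1 osteoclast gene and 2034 of 13172 genes in all were at an unadjusted p under 0.05. DESeq2 called 0 osteoclast genes there and 371 in all.

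Against 24 hours, the osteoclast genes called were 2 of 6 at 14 days and 3 of 7 at 21 days in intermediate digits, all higher, where 1.36% and 5.09% of all genes were called. The median log2 fold change of the genes tested was 1.118 at 14 days, against -0.01 over all genes. At 14 days Atp6v0d2, and at 21 days also Ocstamp, passed the filter through late digits, where they were higher. This favours rises in these counts and in the median. In NR digits 1 of 6 was called at 21 days, where 11.3% of all genes were called, which is near the background. At 7 and 14 days edgeR called 0 of 6 (0.393% and 0% of all genes), with 4 and 3 osteoclast genes at an unadjusted p under 0.05, against 1389 of 12963 and 1460 of 13305 genes in all. DESeq2 called 3 and 2, against 546 and 508 in all. These comparisons share their 0 hour or 24 hour digits.

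**Figure D3:**
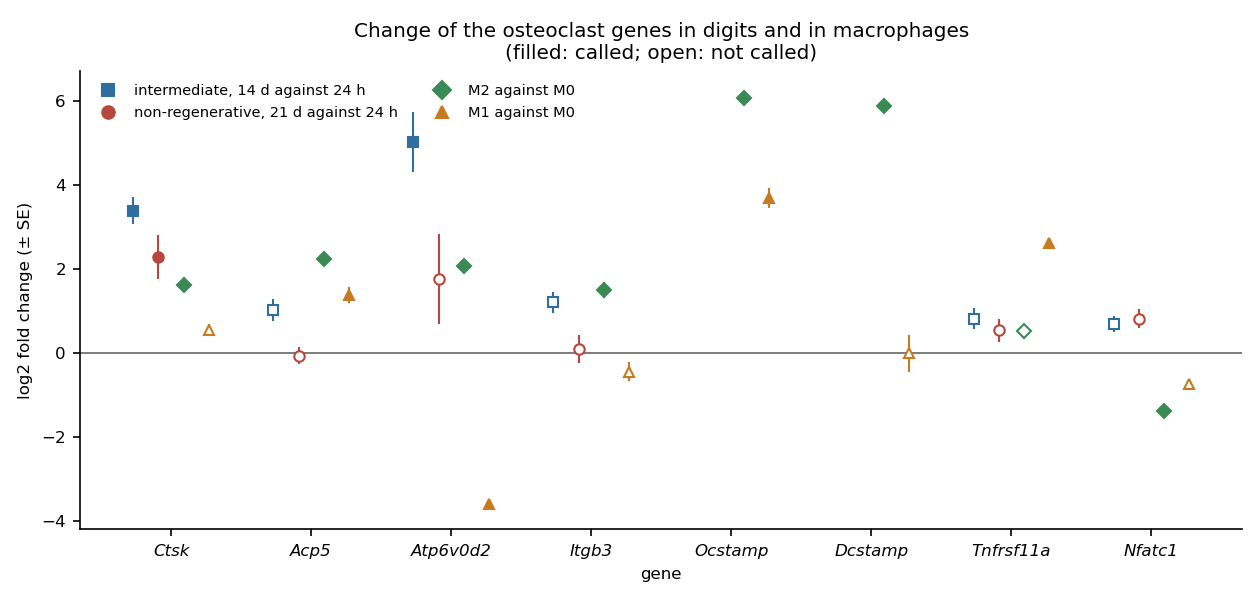
Log2 fold change with its SE for 8 osteoclast genes in intermediate digits at 14 days against 24 hours, NR digits at 21 days against 24 hours, M2 against M0 and M1 against M0. Filled points were called and open points were not, and the M2 points of Ocstamp (6.07) and Dcstamp (5.89) are the highest.

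No osteoclast gene was called between intermediate and NR digits at the same time after amputation. At 0 hours, 24 hours, 14 days and 21 days edgeR called 0 of 5, 0 of 5, 0 of 7 and 0 of 7, where 0%, 0%, 0% and 0.648% of all genes were called. At an unadjusted p under 0.05 there were 1, 0, 0 and 3, against 491, 1472, 270 and 1927 of all genes, and DESeq2 called 0, 0, 0 and 1, against 15, 155, 2 and 196. The DESeq2 call was Acp5 at 21 days, at 39.3 to 53.6 normalized TPM in intermediate and 17.8 to 23.2 in NR digits, with an adjusted p of 6.513e-04 by DESeq2 and 0.0564 by edgeR. Since the digits of each group at 21 days come from different date periods, group and period cannot be told apart for this difference. The difference between the groups in the change from 24 hours was called for 0 of 8 genes at 14 days (0.00667% of all genes) and 0 of 8 at 21 days (0% of all genes), with 0 at an unadjusted p under 0.05 and 0 by DESeq2 at both times. Of all 14996 genes, 1506 and 586 were at an unadjusted p under 0.05, and DESeq2 called 548 and 8 genes in all.

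The members differed in how far they followed each other over the 41 digits. The 5 highest values of Spearman's rho were 0.822 between Ctsk and Atp6v0d2, 0.713 between Acp5 and Atp6v0d2, 0.660 between Ctsk and Nfatc1, 0.639 between Tnfrsf11a and Itgb3 and 0.637 between Acp5 and Ctsk. The lowest was 0.0665, between Dcstamp and Itgb3. These are descriptions over digits that share time points and scaling. The 5 genes whose levels were most like the mean rank of the 10 were Cdh2, encoding N-cadherin (rho 0.878), Col5a2, a collagen V chain (0.844), Ppic, cyclophilin C (0.844), Lum, the proteoglycan lumican (0.842), and Plat, tissue plasminogen activator (0.841), among 13691 genes. Lum also stands in the fibroblast marker list.

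**Figure D4:**
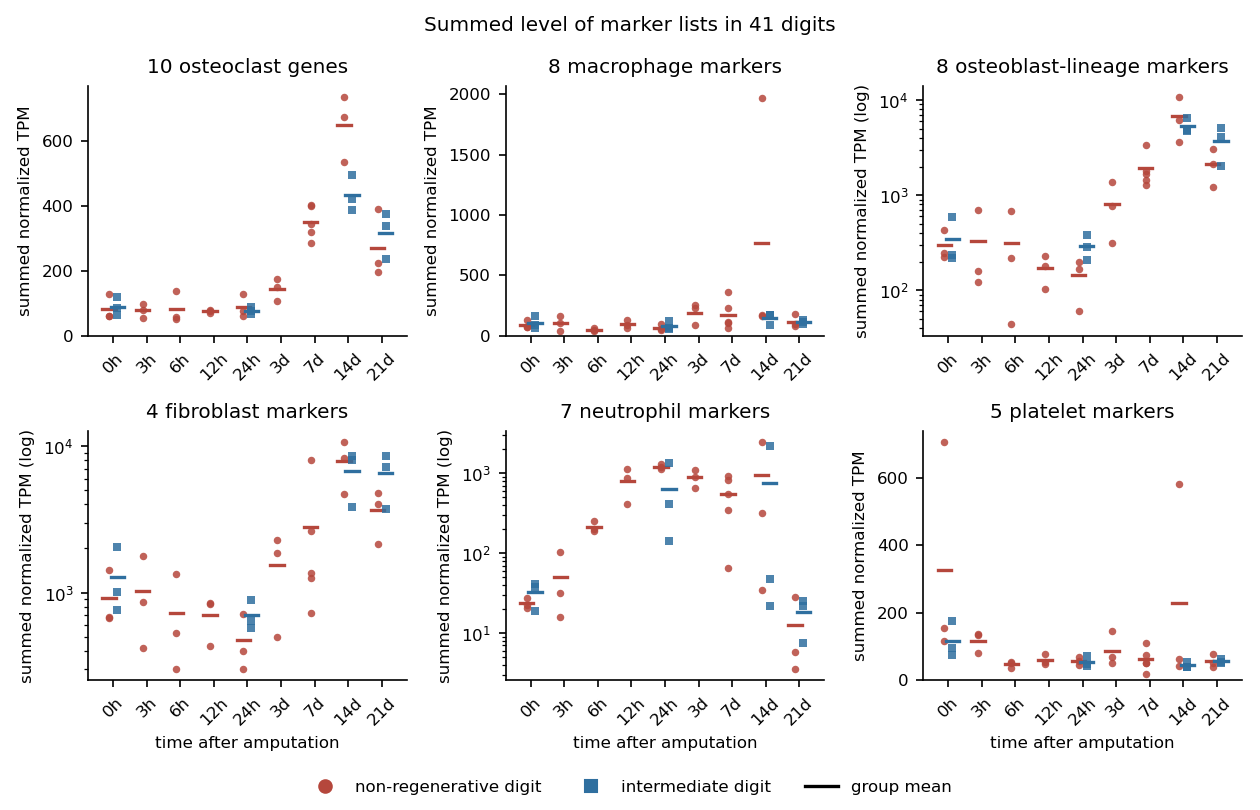
Summed normalized TPM of the 10 osteoclast genes and of marker lists of other cell types in each digit by time after amputation, with lines at group means and log axes for the osteoblast, fibroblast and neutrophil lists. The osteoclast genes sum to 59.2 to 127 in NR digits at 24 hours and 535 to 734 at 14 days (200.4 to 781.2 with TPM rescaled to a common sum), the times between which osteoblast-lineage markers go from 60.5 to 201 to 3610 to 10650.

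Among 28 other genes of the osteoclast pathway, every call between digits of 1 group was at 12 hours, 24 hours or 21 days. From 0 to 24 hours in NR digits 3 of 26 pathway genes tested were called, where 10.7% of all genes were. Of 9 genes for acid secretion and resorption, 3 rose from 0 to 24 hours in NR digits, namely Mmp9, a gelatinase that neutrophils also carry (4.79 ± 0.59 on the log2 scale, adjusted p = 0.00209), Car2, carbonic anhydrase II (2.40 ± 0.27, 0.00132), and Tcirg1, the a3 subunit of the proton pump (1.1 ± 0.23, 0.0167). Neutrophil markers summed to 20.4 to 27.7 normalized TPM at 0 hours and 1134 to 1299 at 24 hours in these digits, and their part in the rise of Mmp9 was not tested. At 12 hours against 0 hours 3 of 26 were called, where 11.4% of all genes were. Mmp9 (3.45 ± 0.61, 0.00889) and Tyrobp, the DAP12 adaptor (3.15 ± 0.51, 0.00645), were higher at 12 hours than at 0 hours, as was Csf1, the macrophage growth factor (1.1 ± 0.29, 0.0328). From 24 hours to 21 days in NR digits 5 of 27 were called, where 11.3% of all genes were. Here Mmp9 (-3.86 ± 0.63, 0.00686), Car2 (-2.63 ± 0.42, 0.00642), Csf1 (-1.46 ± 0.23, 0.00587) and Tnfrsf11b, the RANKL decoy osteoprotegerin (-1.68 ± 0.43, 0.0325), fell. Trem2, a DAP12-coupled receptor, rose (2.47 ± 0.62, 0.0313). In intermediate digits Mmp9 rose from 0 hours to 21 days (2.32 ± 0.35, 0.0118), the 1 call of 26, where 1.39% of all genes were called. Car2 fell from 24 hours to 21 days in these digits (-2.01 ± 0.29, 0.00864), the 1 call of 27, where 5.09% of all genes were called. At 7 and 14 days, edgeR called 0 of the 26 or 27 pathway genes tested, where 0% to 1.68% of all genes were called. Against 0 hours, 4 were at an unadjusted p under 0.05 in NR digits at 7 days, 8 in NR digits at 14 days and 8 in intermediate digits at 14 days, and DESeq2 called 2, 4 and 3. Of all genes, 566 of 13046, 1044 of 13567 and 1790 of 13334 were at such a p, and DESeq2 called 164, 357 and 500. Against 24 hours the same comparisons held 1, 2 and 5 at an unadjusted p under 0.05, and DESeq2 called 0, 1 and 0. Of all genes, 1389 of 12963, 1460 of 13305 and 2239 of 13168 were at such a p, and DESeq2 called 546, 508 and 587.

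Among cultured macrophages most of the osteoclast genes were higher after IL-4. M2 cultures had Dcstamp at 38.8, 37.7 and 37.4 normalized TPM, against 0.870, 0.275 and 0.610 in M0, and Ocstamp at 28.7, 30.5 and 26.8, against 0.345, 0.613 and 0.277. Both fusion genes were thus near 0 in M0 and well above it in all 3 M2 libraries. Dcstamp rose 59.2-fold (5.89 ± 0.16 on the log2 scale, adjusted p = 2.667e-10) and Ocstamp 67.1-fold (6.07 ± 0.15, 1.252e-10), from 7 to 29.9 expected counts per M0 library. Atp6v0d2 was already at 101.4, 87.2 and 81.6 in M0 and reached 374.4, 410.7 and 406.3 in M2 (2.08 ± 0.08, 1.793e-09).

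Acp5 was at 4.11, 7.02 and 6.79 in M0 and 28.3, 27.4 and 29.7 in M2 (2.23 ± 0.15, 1.415e-07), and Ctsk at 5.33, 7.16 and 6.86 and 21.1, 21.3 and 19.5 (1.63 ± 0.11, 2.155e-07). Itgb3 was at 4.55, 8.24 and 4.59 in M0 and 15.7, 17.6 and 17.9 in M2 (1.5 ± 0.18, 1.88e-05). Each of these M2 ranges lay above its M0 range. How many of all genes separated in this way was not counted. By edgeR, 9945 of 12976 genes were at an unadjusted p under 0.05 in M2 against M0. Nfatc1 went the other way, from 35.9, 37.2 and 37.4 to 15.2, 14 and 15.6 (-1.37 ± 0.05, 1.908e-09). In all, 7 of the 8 genes tested were called in M2 against M0, 6 higher and 1 lower, where 22.3% of all genes were called, 11% higher and 11.3% lower. Their median log2 fold change was 1.85, against -0.00354 over all genes.

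**Figure D5:**
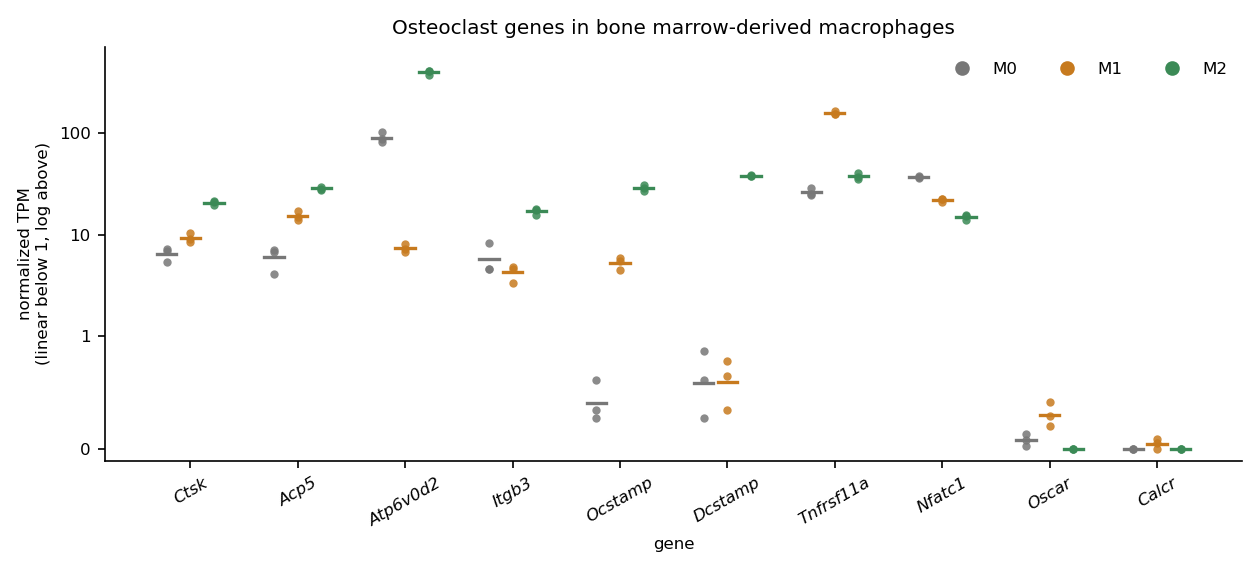
Normalized TPM of the 10 osteoclast genes in each M0, M1 and M2 library, on an axis that is linear below 1 and logarithmic above it, with 1 point per library and a line at each group mean. M2 libraries are highest for Atp6v0d2 (374.4 to 410.7) and Dcstamp (37.4 to 38.8), and M1 libraries for Tnfrsf11a (153.4 to 162.9).

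M1 cultures, treated with IFN-γ and LPS, differed from M0 in both directions. Tnfrsf11a, at 28.7, 24.7 and 25.4 in M0, stood at 162.9, 154.2 and 153.4 in M1 (2.62 ± 0.05 on the log2 scale, adjusted p = 3.376e-13), and its level was the highest of the 10 genes in these cultures. Ocstamp reached 4.51, 5.52 and 5.83 (3.69 ± 0.23, 1.259e-08) and Acp5 14, 14.9 and 17.2 (1.39 ± 0.18, 1.455e-05). Atp6v0d2 was 12.1-fold lower, at 6.81, 7.21 and 8.05 (-3.59 ± 0.10, 3.888e-12). Of the 8 genes tested, 4 were called in M1 against M0, 3 higher and 1 lower, where 46.1% of all genes were called, 20.1% higher and 26% lower, so the count is near the background. Dcstamp, with 6 to 15 counts in M1 and 7 to 27.7 in M0, had an adjusted p of 0.991. Whether the responses of the 2 fusion genes differed was not tested. Nfatc1 (-0.74 ± 0.05, 1.693e-08) and Ctsk (0.55 ± 0.15, 0.00414) passed the p threshold but were under 2-fold. The scaled values summed to 1331226 to 1355441 in M1 libraries and 786283 to 820932 in M0, so these differences depend on the scaling. With TPM rescaled to the same sum in every library, Ctsk was 6.71, 6.28 and 7.71 in M1 against 6.49, 9.11 and 8.44 in M0, so its direction turned with overlapping groups, and Nfatc1 was 15.6 to 17 against 43.8 to 47.3. Acp5 was then 10.4, 11 and 12.9 against 5, 8.93 and 8.35, closer than in normalized TPM but still without overlap.

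M1 and M2 compared directly differed in 6 of the 8 genes, where 48% of all genes were called, 20.1% higher in M1 and 27.9% lower. Dcstamp was 64-fold (-6.00 ± 0.14 on the log2 scale, 3.669e-14) and Atp6v0d2 54.4-fold (-5.77 ± 0.08, 9.247e-16) lower in M1 than in M2. Ocstamp (-2.46 ± 0.09, 2.661e-12), Itgb3 (-2.04 ± 0.10, 6.834e-11) and Ctsk (-1.16 ± 0.10, 4.1e-08) were lower as well, and Tnfrsf11a was higher (2.0 ± 0.05, 1.969e-13), all by edgeR's quasi-likelihood test. The 3 comparisons share libraries. Oscar had 1, 3 and 2 counts in M0, 3, 4 and 5 in M1 and 0 in all 3 M2 libraries, and Calcr had 0 in M0 and M2 and 1, 1 and 0 in M1, so neither was tested. Fibroblast markers summed to 289 to 408 normalized TPM in M0, 202 to 220 in M1 and 582 to 654 in M2, and osteoblast-lineage markers to 264 to 411, 151 to 182 and 459 to 505. Both sums were, like Ctsk, higher in M2 than in M0 and M1, but the fibroblast markers did not all follow their sum. In M1 against M2, Col1a2 (-1.804 on the log2 scale) and Pdgfra (-3.278) were called lower, and Lum was not called. Dcn was called higher, with mean normalized counts of 849.5 in M1 and 278 in M2. The part of fibroblasts and osteoblast-lineage cells in the values was not tested.

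The order of levels differed between digits and cultures, with the reservation that the tables were scaled separately. Ctsk led in the digits, with a median of 65.1, and had rank 4 in M0 (6.86) and M1 (9.05) and rank 6 in M2 (21.1). Atp6v0d2 led in M0 (87.2) and M2 (406.3) and had rank 6 in the digits (0.986). Tnfrsf11a led in M1 (154.2). The highest digit value of Ctsk, 529.5, was above all 9 macrophage libraries, whereas the highest digit value of Atp6v0d2, 17.7, was below all M0 and M2 libraries.

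Of the pathway genes outside the 10, edgeR called 14 of 27 in M1 against M0, 4 of 26 in M2 against M0 and 14 of 27 in M1 against M2, where 46.1%, 22.3% and 48% of all genes were. In M1 against M0, 5 of 9 resorption genes were higher, among them Car2 (4.79 on the log2 scale), Snx10, a sorting nexin needed for the ruffled border (2.39), Tcirg1 (1.51) and Itgav, the partner chain of Itgb3 (1.25). Of 11 differentiation genes tested 5 were higher and 2 lower, with Jdp2, an AP-1 family factor (4.11), Src, the kinase that organizes the actin ring (3.14), Fcer1g, the Fc receptor γ chain (1.98), and Trem2 (-2.48) among them. Of the 4 restraining genes Bcl6 rose (2.83) and Tnfrsf11b fell (-2.11). Of the 3 ligand genes edgeR called 0, with 2 at an unadjusted p under 0.05 and 0 called by DESeq2. In the same comparison 11164 of 12939 genes in all were at such a p, and DESeq2 called 6335. In M2 against M0 the genes called were Car2 (3.71) of 9, Src (1.86) of 11, Tnfrsf11b (2.38) of 4 restraining genes and Csf1 (1.49) of the 2 ligand genes tested, all higher. Between M1 and M2, 2 of 9 resorption genes were higher in M1 and 1 lower, led by Snx10 (1.71) and Mmp9 (-1.15), and 3 of 11 differentiation genes were higher and 2 lower, led by Jdp2 (3.76) and Trem2 (-2.09). Bcl6, a repressor of osteoclast genes, was higher in M1 (1.92), and Tnfrsf11b (-4.59) was lower. Tnfsf11, which encodes RANKL, was higher in M1 than in M2 (1.77), while Csf1 (-2.24) and Il34, another ligand of the CSF1 receptor (-1.33), were lower.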

How the data were processed

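Polyadenylated RNA of 41 digits and 9 macrophage cultures was sequenced as single-end reads. Per the paper's methods and the labels, the authors aligned reads to mm10 genes with Bowtie and deposited an expected count per gene from RSEM 1.2.3, without normalization. They also deposited a signal, normalized TPM, in which libraries are scaled to each other by the median-by-ratio method. In the tables, 26 gene names turned into dates were restored from the transcript lists. Groups and times came from the sample labels. Digit replicates were numbered in accession order and pair nothing.

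Expected counts were rounded and tested in R 4.3.3 with edgeR 4.0.16 (filterByExpr, TMM, glmQLFit, glmQLFTest) on the libraries of the 2 groups compared. The time course of each digit group was tested with 1 F test, and the difference between the digit groups in the change from 24 hours was tested in 1 fit of all 41 digits. Calls needed a Benjamini-Hochberg adjusted p under 0.05 and mean normalized counts plus 1 that differed over 2-fold (no fold limit for tests over time and of differences). SE is the log2 fold change divided by the square root of F. The authors used EBSeq, which was not used here. DESeq2 1.42.0, other scaling, no filter, fits over more digits, the date period and leaving out each library were alternatives, as was a replicate block for the macrophages. Their labelled numbers did not pair libraries: correlations of same-numbered libraries ran from -0.0895 to 0.0979 (9 pairs), others from -0.0929 to 0.114 (18 pairs). Replicates differed beyond counting error in all 55 pairs, with chi-square per degree of freedom from 3.13 to 437.9. Scripts were tested on simulated data.

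The rule for named genes took all 10 members, called genes of the pathway lists (up to 4 per list with the largest change) and the 5 genes most like the members. Of the pathway genes so selected, 1 is not reported here. Members and lists were chosen with earlier results of these data known. The sum of marker genes per list was compared as a description. Limits on a count of 0 cover counting error only.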

Additional observations from a re-analysis of the deposited data

Results flagged for a closer look

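In the NR digits at 7 days, the group of 5, the highest or lowest digit lay far from the others for 5 of the 10 genes, by the gap to its nearest neighbour relative to the whole range (Dixon's test, critical value 0.71). Chance flags about 1 in 20 such groups, and the 10 tests share the same 5 digits. Replicate 2 was lowest for Acp5 (0.5022 normalized TPM, against a highest value of 49.28) and highest for Tnfrsf11a (46.62) and Itgb3 (48.9). Replicate 3 was highest for Oscar (1.347) and replicate 1 for Calcr (0.132), each with 0 in the other digits, which sets the ratio to its maximum whatever the value, so the chance rate does not apply to these genes and Calcr rests on 1 count. Groups of 3 were not examined in this way.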

How the results depend on the processing

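Calcr, Oscar and, in digits, Dcstamp lay at or near 0 counts and mostly could not be tested. Ocstamp was not tested in most comparisons of 2 digit groups. Whether depth or low expression set these counts was not tested. With 3 digits per group most calls in digits rested on single digits. Over 23 calls in digits, 291 of 380 refits kept the call, 89 lost it and 0 changed its direction, and all 204 refits of the 17 macrophage calls kept theirs. Of 18 levels, 10 moved by more than 1 SD when TPM was rescaled to the same sum in every library. Calls of osteoclast genes in NR digits against 0 hours were 4 in all, 17 with DESeq2, 7 without the pair of digits that stood apart, 11 with the remaining 39 digits in 1 fit and 1 to 6 without single digits. In intermediate digits against 0 hours they were 5, and 2 with all digits in 1 fit, 2 with the date period as a term, 2 with 39 digits in 1 fit and 0 to 5 without single digits. Late times against 24 hours gave 6, with DESeq2 14, without the pair 11, with 39 digits in 1 fit 12 and without single digits 3 to 9. Intermediate against NR digits gave 0, with DESeq2 1 and without single digits 0. Over NR time there were 3, with RLE scaling 5, with DESeq2 7, without the pair 5 and without single digits 3 to 5, and over intermediate time 5, and 3 to 5 without single digits. In the DESeq2 test over NR time, 4436 of all genes were called. The difference in change from 24 hours gave 0 in every fit without 1 digit. RLE scaling moved the median log2 value of all genes in that test at 14 days from -0.06 to -0.32. In macrophages, leaving out single libraries gave 4 for M1 against M0, 7 for M2 against M0 and 6 to 7 for M1 against M2. A replicate block by library number gave 4, 7 and 6, the same counts as without it, and changed no call. The alternatives without the pair of digits, with 39 digits and with rescaled TPM were chosen after seeing the data. Causes were not tested.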
